A study of Mus musculus with 6 samples.

Results

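The 10 genes described here encode secreted acute phase proteins of the liver and 1 transcription factor that acts on such genes. They are the serum amyloid A genes Saa1, Saa2, Saa3 and Saa4, the orosomucoid genes Orm1, Orm2 and Orm3, lipocalin 2 (Lcn2), haptoglobin (Hp) and Cebpd. Members were taken by gene symbol from the deposited gene tables, so they are 10 of 50600 listed genes, and all 10 passed the filter on low counts. The tables hold RNA sequencing of whole liver from 6 C57BL/6 mouse samples at an age of 1 month. The genotype label of 3 samples is Dicerloxp/loxp;Alb-cre (Dicer LKO: LKO 1, LKO 2 and LKO 3), and that of the other 3 is Dicerloxp/loxp (control 1, control 2 and control 3). Both groups thus carry loxP-flanked Dicer, and the series' design text calls the controls wild type. The albumin promoter drives Cre in hepatocytes, so the other cells of the liver should keep Dicer, the enzyme that cuts microRNA precursors. The labels give neither sex nor litter and do not say that each sample is a separate animal, so a p-value here measures sample-to-sample spread, part of which may be technical.

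The acute phase response is the rapid change in plasma proteins that hepatocytes make after infection or injury. Interleukin 6 family cytokines act through gp130 and STAT3, and interleukin 1 and TNF through NF-kB, and C/EBP transcription factors, C/EBP beta and C/EBP delta among them, take part in switching on the target genes. Serum amyloid A proteins travel on high-density lipoprotein, orosomucoids bind drugs and lipids in plasma, lipocalin 2 captures bacterial siderophores, and haptoglobin binds free haemoglobin. Lcn2 and Saa3 are also made outside hepatocytes, by neutrophils and by macrophages respectively.

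Totals ran from 14141973 counts (control 3) to 25049749 (LKO 3). Hepatocyte markers were abundant in each library, with albumin (Alb) at 24330 to 52050 CPM. CPM is the count scaled to one common library size by the library's total and its TMM factor, with no correction for gene length. The 10 genes together took 0.346% of counts in control 1, 1.76% in control 2 and 0.207% in control 3, against 1.42%, 3.72% and 1.33% in LKO 1, LKO 2 and LKO 3. Dicer1, the targeted gene, was lower in every Dicer LKO library (24.4 to 31.2 CPM) than in any control (42.5 to 69.3 CPM), as the labels have it, although the difference was not called (log2 fold change −0.99, adjusted p = 0.0622, edgeR). For the 10 genes together control 2 was above LKO 1 and LKO 3, and the results below are given library by library for that reason. In whole liver, more cells of a type and more RNA per cell cannot be told apart.

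The promoter sequences are shown first as a description, and their part in the expression of these genes was not tested. RefSeq windows (GRCm38.p6) of 300 bases, from 250 before to 50 after the transcription start, were at hand for 7 of the 10 genes: Saa1, Saa2, Saa3, Saa4, Orm2, Orm3 and Lcn2. A C/EBP-type sequence, TTNNGCAA on either strand, occurred in all 7 windows, against 10.8% of the 32851 windows in the table. Saa1 and Saa2 windows were 95.3% identical and those of Orm2 and Orm3 86.2%, so these windows are not independent. Neither a STAT-type sequence (TTCNNNGAA, in 8.3% of all windows) nor an NF-kB-type sequence (GGG, any 2 bases and TTTCC, in 1.63%) occurred in any of the 7, which says only that these letters are not in these windows. A match is a description and not a measured binding site. Capitals mark the C/EBP-type match in 5 of the windows, each written 5′ to 3′ in the direction of its gene.
Saa1, chr7:46742931-46743230, minus strand: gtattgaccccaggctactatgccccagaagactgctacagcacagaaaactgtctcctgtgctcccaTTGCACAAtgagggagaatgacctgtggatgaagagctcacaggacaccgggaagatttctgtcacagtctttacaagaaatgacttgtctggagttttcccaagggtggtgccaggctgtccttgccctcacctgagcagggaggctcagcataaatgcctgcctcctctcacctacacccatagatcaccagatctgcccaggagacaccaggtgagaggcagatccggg
Saa2, chr7:46751583-46751882, plus strand: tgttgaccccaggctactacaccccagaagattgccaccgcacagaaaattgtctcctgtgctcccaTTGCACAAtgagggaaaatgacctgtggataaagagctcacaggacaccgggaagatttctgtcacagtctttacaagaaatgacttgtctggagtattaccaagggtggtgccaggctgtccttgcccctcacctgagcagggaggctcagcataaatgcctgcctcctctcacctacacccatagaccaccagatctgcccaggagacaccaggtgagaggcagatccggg
Saa3, chr7:46715627-46715926, minus strand: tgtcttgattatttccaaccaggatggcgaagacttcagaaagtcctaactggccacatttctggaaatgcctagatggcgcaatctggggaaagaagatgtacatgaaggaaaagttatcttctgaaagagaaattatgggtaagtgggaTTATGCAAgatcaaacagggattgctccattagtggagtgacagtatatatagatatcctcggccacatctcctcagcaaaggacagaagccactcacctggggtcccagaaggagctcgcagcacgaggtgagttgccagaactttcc
Orm2, chr4:63362199-63362498, plus strand: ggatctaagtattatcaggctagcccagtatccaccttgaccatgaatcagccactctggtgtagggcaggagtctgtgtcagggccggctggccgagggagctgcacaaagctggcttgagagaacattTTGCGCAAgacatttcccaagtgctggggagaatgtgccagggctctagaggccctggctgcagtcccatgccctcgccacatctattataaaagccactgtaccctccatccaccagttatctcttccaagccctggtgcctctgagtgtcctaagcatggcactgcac
Lcn2, chr2:32387690-32387989, minus strand: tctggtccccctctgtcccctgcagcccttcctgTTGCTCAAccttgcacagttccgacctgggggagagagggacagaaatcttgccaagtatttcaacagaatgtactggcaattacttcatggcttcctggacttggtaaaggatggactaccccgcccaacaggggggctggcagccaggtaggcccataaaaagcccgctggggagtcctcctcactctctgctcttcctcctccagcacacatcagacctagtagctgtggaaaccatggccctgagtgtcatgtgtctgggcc

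Counted from the transcription start, the match began at −182 in Saa1 and −183 in Saa2, where both windows read TTGCACAA, the reverse complement of TTGTGCAA. Saa3 held TTATGCAA at −99, and Orm2 held the palindrome TTGCGCAA at −120. In Orm3, at −121, the letters were TTGCACAA. Lcn2 held TTGCTCAA at −216, and Saa4 held matches at −245 and −52.

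Of the 10 genes, 1 passed the test between genotypes, and it was the transcription factor gene. Cebpd rose in Dicer LKO, from 6.55 ± 1.78 to 24.1 ± 7.25 CPM (mean ± SD, n = 3 each). This is a log2 fold change of 1.87 (SE 0.29; adjusted p = 0.0347, edgeR's quasi-likelihood test with Benjamini-Hochberg adjustment over 14314 genes). Among all genes tested, 0.741% were called higher and 0.552% lower, and none of the 10 was lower. The other 9 had log2 fold changes of 0.58 to 2.56 and adjusted p-values of 0.31 to 0.648. This test thus did not tell their differences from the spread between libraries, which does not show that the groups are equal. All 10 values were positive, with a median of 1.55, where the median of all genes tested was −0.01 and 48.6% were positive. At an unadjusted p under 0.05 there was 1 of the 10, against 21% of all genes tested.

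**Figure D1:**
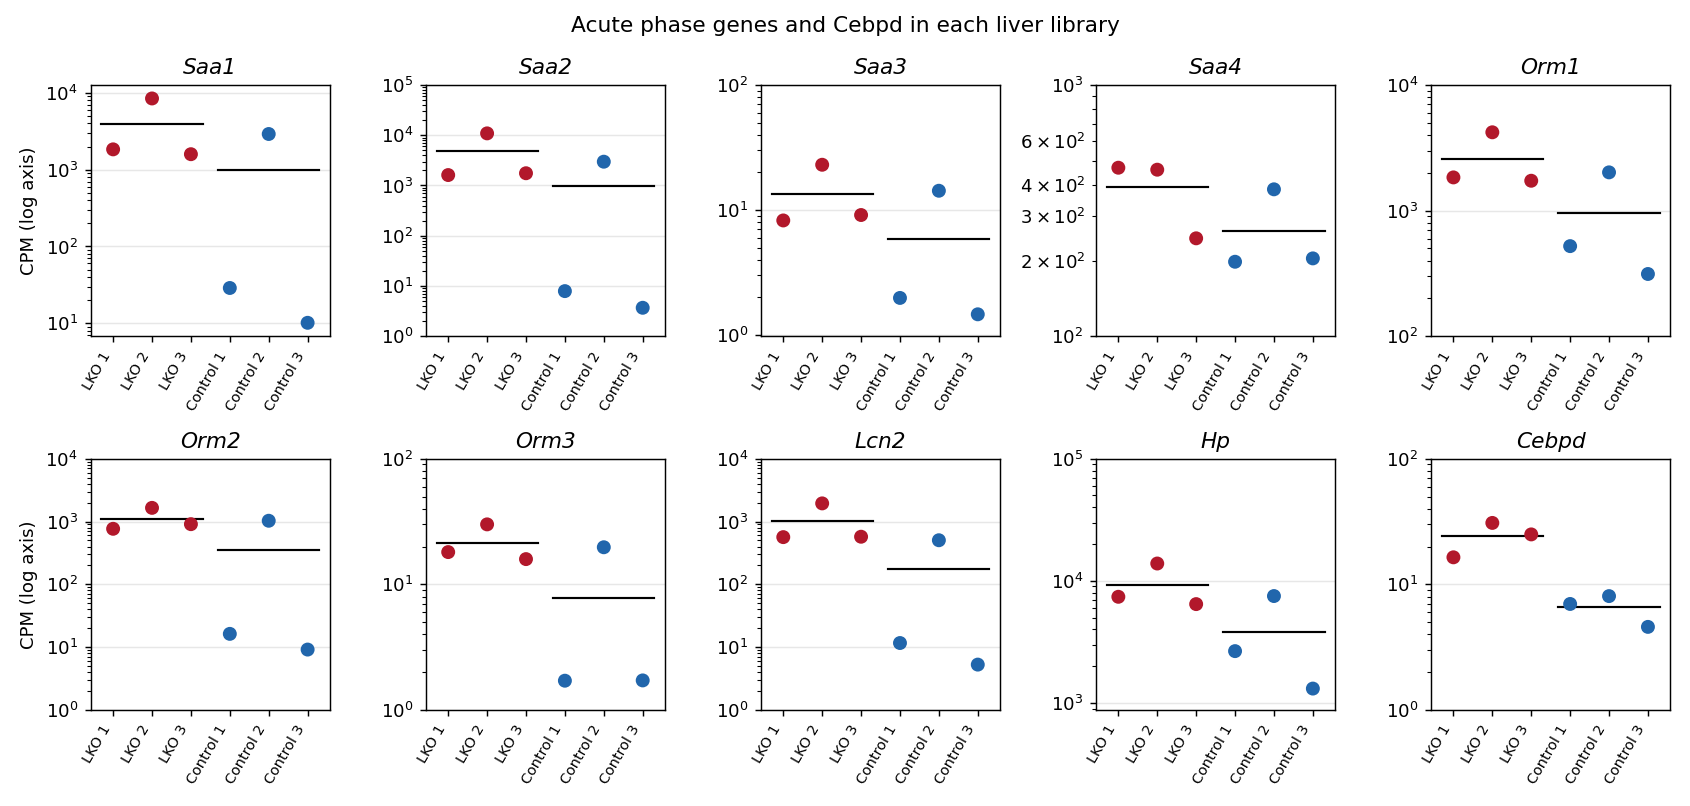
CPM of each of the 10 genes in each library (log axes, which differ between panels), Dicer LKO in red and control in blue, with a line at each group's mean. Control 2 is the highest control in all 10 panels and lies within or near the Dicer LKO range in every panel but that of Cebpd, where it stays at 8.07 CPM, below LKO 1 at 16.4 CPM.

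Cebpd (ENSMUSG00000071637.5, chromosome 16, 15887286 to 15891031, plus strand, GRCm38) encodes C/EBP delta, a leucine zipper factor that is low in resting liver and induced by cytokines. It was measured at 16.4, 30.8 and 24.98 CPM in LKO 1, LKO 2 and LKO 3 and at 6.99, 8.07 and 4.59 CPM in control 1, control 2 and control 3. Every Dicer LKO library lay above every control (two-sided exact permutation test, p = 0.1, which no design of 3 against 3 can go below). Of the 10 genes, 2 (Cebpd and Lcn2) were separated in this way and 0 in the other, against 12.7% of all genes tested in the higher and 15.4% in the lower direction. Cebpd also had the narrowest spread of the 10 genes on the linear scale, with highest-to-lowest ratios of 1.88 in Dicer LKO and 1.76 in the controls.

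The size of the Cebpd difference changed little when libraries were left out, while its call was lost in most of those fits. Without each library in turn the log2 fold change was 1.70 to 2.09, and the adjusted p exceeded 0.05 in 5 of these 6 fits (edgeR). It was 0.0611 without LKO 2, 0.119 without LKO 3, and 0.0583, 0.0630 and 0.0970 without control 1, control 2 and control 3. Only the fit without LKO 1 kept the call (0.0355). In the annotation Cebpd overlaps Spidr, a DNA repair gene on the opposite strand. The strand setting of the counting is not given in the sources used here, so reads there cannot be assigned with certainty. Spidr was at 7.29, 9.20 and 7.65 CPM in LKO 1, LKO 2 and LKO 3 and at 5.32, 6.34 and 5.80 CPM in the controls in order (log2 fold change 0.47, adjusted p = 0.18, edgeR).

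Saa1 and Saa2, which encode the main inducible serum amyloid A proteins, showed the widest range of any of the 10 genes. Saa1 (chromosome 7, 46740497 to 46742980, minus strand) was measured at 1837, 8448 and 1589 CPM in LKO 1, LKO 2 and LKO 3, and at 28.8, 2911 and 10.1 CPM in control 1, control 2 and control 3. Control 2 exceeded LKO 1 and LKO 3, while control 1 and control 3 lay far below all other libraries. The log2 fold change of 2.01 was smaller than its SE of 2.09 (adjusted p = 0.638, edgeR). Saa2 (chromosome 7, 46751790 to 46754313, plus strand) was likewise highest in LKO 2 and next in control 2, at 1613, 10880 and 1753 CPM in Dicer LKO and 7.93, 2974 and 3.70 CPM in the controls. The highest control was 804 times the lowest for Saa2 and 287 times for Saa1. On the log2 scale the SD within controls was 4.34 for Saa1 and 5.28 for Saa2, where the median gene had 0.28.

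The balance between the 2 genes also differed between libraries. By TPM, which corrects for gene length, Saa1 stood at 3.47 and 2.78 times Saa2 in control 1 and control 3, and at 1.18, 0.793 and 0.934 times in LKO 1, LKO 2 and LKO 3. In control 2 the ratio was 1.01, within the Dicer LKO range. The annotated transcripts compared for the pair, a single transcript of each gene, are 93.9% identical and share 13.2% of their 50-base stretches. The split of reads between the 2 genes is therefore a model's estimate. The summed counts of Saa1 and Saa2 gave a log2 fold change of 2.14 (SE 2.23, adjusted p = 0.638, edgeR), so the outcome of the test did not turn on that split.

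Saa3 and Saa4 varied less between the controls than Saa1 and Saa2 did, with highest-to-lowest ratios of 9.73 and 1.94. Saa3 (chromosome 7, 46711998 to 46715700, minus strand), the serum amyloid A gene of macrophages and adipose tissue as well as liver, was measured at 8.26, 23.0 and 9.12 CPM in Dicer LKO. Its controls were at 1.98, 14.3 and 1.47 CPM, so control 2 again lay above LKO 1 and LKO 3. The Saa3 log2 fold change was 1.17 (SE 0.95, adjusted p = 0.54, edgeR). Saa4 (chromosome 7, 46727998 to 46732603, minus strand), whose product is a constitutive lipoprotein component, was at 469, 460 and 245 CPM in Dicer LKO and 198, 384 and 204 CPM in the controls. It was the only one of the 10 in which LKO 2 was not the highest Dicer LKO library, and its log2 fold change was the smallest, at 0.58 (SE 0.35, adjusted p = 0.385, edgeR).

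The 3 orosomucoid genes lie next to each other on chromosome 4 and differed most from one another in the controls. Orm1 (63344560 to 63348163, plus strand) was measured at 1838, 4200 and 1729 CPM in LKO 1, LKO 2 and LKO 3, and at 522, 2016 and 313 CPM in control 1, control 2 and control 3. Orm2 (63362449 to 63365878, plus strand) was at 766, 1650 and 908 CPM in Dicer LKO and at 16.3, 1029 and 9.18 CPM in the controls. Orm1 was therefore well expressed in every library, whereas Orm2 was near the level of a minor transcript in control 1 and control 3. By TPM, Orm1 was 32 and 34.1 times Orm2 in those libraries, 1.96 times in control 2 and 1.9 to 2.55 times in Dicer LKO.

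Orm3 (63356162 to 63359511, plus strand) was measured at 18.1, 30.0 and 15.9 CPM in Dicer LKO while its controls were at 1.71, 19.7 and 1.72 CPM. The log2 fold changes were 1.45 for Orm1 (SE 0.75, adjusted p = 0.325, edgeR), 1.66 for Orm2 (SE 1.77, adjusted p = 0.645) and 1.45 for Orm3 (SE 1.03, adjusted p = 0.479). The groups overlapped for all 3 because control 2 lay above LKO 1 and LKO 3, and below LKO 2, in each. Orm1 and Orm2 transcripts are 91.0% identical, so their split is uncertain, and the 3 genes summed gave 1.51 (SE 0.89, adjusted p = 0.391, edgeR).

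Lcn2 did not overlap between the groups, yet it was not called. Lcn2 (chromosome 2, 32384633 to 32388252, minus strand) was measured at 565, 1944 and 573 CPM in LKO 1, LKO 2 and LKO 3 and at 11.7, 504 and 5.29 CPM in the controls. Control 2 came within a small distance of LKO 1, while the lowest control stood 95.2-fold below the highest. The log2 fold change was 2.56 (SE 1.79, adjusted p = 0.475, edgeR), and the exact permutation test gave 0.1, as for Cebpd. Hp (chromosome 8, 109575128 to 109579172, minus strand) is a major plasma protein gene and was measured at 7402, 13860 and 6449 CPM in Dicer LKO and 2658, 7506 and 1312 CPM in the controls. Its log2 fold change was 1.27 (SE 0.64, adjusted p = 0.31, edgeR), and control 2 lay above LKO 1 and LKO 3.

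**Figure D2:**
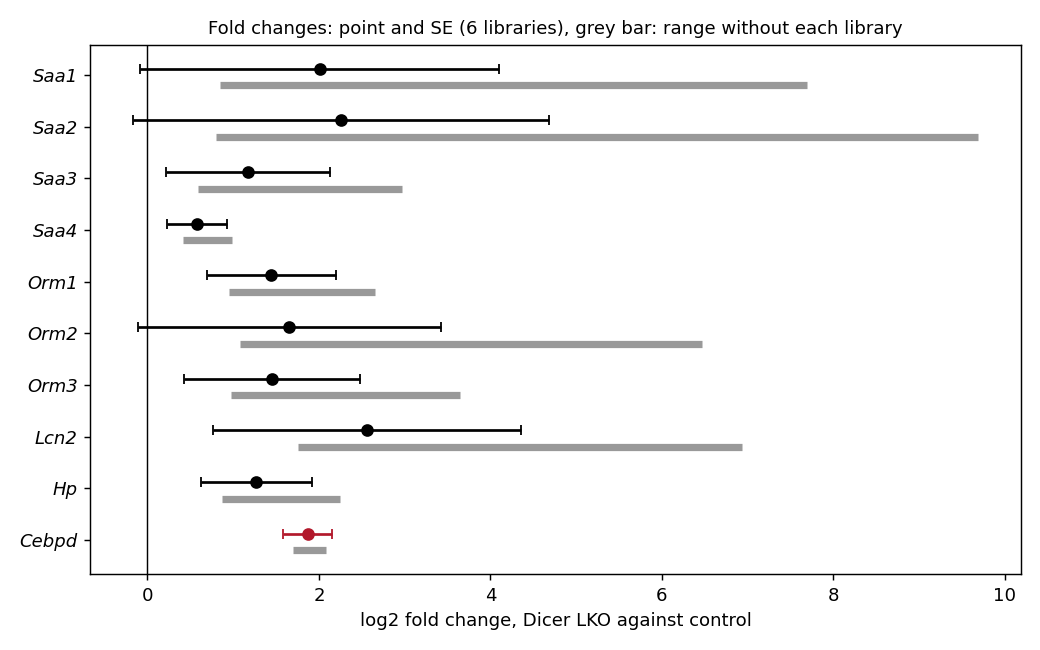
Log2 fold change of each gene, Dicer LKO against control, with its SE (points and bars; red, called) and, in grey, the range of that value when each library was left out in turn. Cebpd has a range of 1.70 to 2.09, while that of Saa2 runs from 0.80 to 9.69.

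The sizes of the other 9 differences changed with single libraries. Without control 2, the log2 fold change was 7.70 for Saa1, 9.69 for Saa2, 6.94 for Lcn2, 6.47 for Orm2 and 3.65 for Orm3. Orm2 and Orm3 passed the test in that fit (adjusted p = 0.0248 and 0.0319, edgeR), where 0.285% of all genes were called higher. Control 2 was the highest control for both, so leaving it out widened their difference, and these 2 calls are no support for one. Without LKO 2, by contrast, Saa1 was at 0.85 (adjusted p = 0.897) and Saa2 at 0.80 (0.917). Leaving out control 1 lowered Saa3 to 0.75, Orm2 to 1.09 and Orm3 to 0.97, and leaving out control 3 lowered the first 2 to 0.74 and 1.08. Saa1 was at 1.44 and 1.43 in those fits and Hp at 0.87 without control 3. Hp was at 2.25 and Orm1 at 2.66 without control 2, against 0.95 for Orm1 without LKO 2. Saa4 reached 0.98 without control 2 and Saa3 2.97, neither of them called.

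By TPM, the scale on which genes can be compared, the order of the 10 was not the same in all libraries. Hp led in LKO 1 and LKO 3 (4394 and 3972 TPM), Saa2 in LKO 2 (16482 TPM) and Saa1 in control 2 (4983 TPM). In control 1 and control 3 Hp led at 1701 and 861 TPM, followed by Orm1 at 667 and 407 TPM and Saa4 at 76.5 and 81.0 TPM, with Saa1 only the fourth. In LKO 1 and LKO 3, Saa1 and Saa2 lay between 2591 and 3070 TPM. Cebpd was the lowest of the 10 in all 6 libraries, at 3.14, 5.61 and 4.95 TPM in Dicer LKO and 1.44, 1.59 and 0.97 TPM in the controls.

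Except for Saa4, the secreted protein genes had closely similar profiles over the libraries. As a description over 6 libraries, which share depth and genotype, the Pearson r of log2 CPM had a median of 0.972 over the 45 pairs. Saa4 had values of 0.821 to 0.863 with the other secreted protein genes, and Cebpd 0.584 with Saa4 to 0.86 with Lcn2. Saa1 had 0.998 with Saa2 and 0.996 with Lcn2. The libraries fall into separate clusters for Saa1 (control 1 and control 3 low, the others high), so these values mostly restate that separation, and it cannot be tested within clusters this small. Control 2 was the highest control for 10 of the 10 genes, where this held for 28.2% of all genes tested. LKO 2 was the highest Dicer LKO library for 9 of them, against 39.2% of all genes tested.

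By the same measure, over 6 libraries and 10764 genes compared, the profiles most like that of Saa1 were those of Tmem176a (r = 0.999), Prcp, Tapbpl, Serpinf2 (0.996 each) and Fyn (0.994). Serpinf2, which encodes alpha 2-antiplasmin, was at 1006, 1156 and 952 CPM in Dicer LKO and 674, 991 and 619 CPM in the controls, so control 1 and control 3 were again lowest and LKO 2 highest, over a smaller range, but control 2 lay below LKO 1. Those most like Cebpd were Fam43a (0.995), angiotensinogen (Agt, 0.994), Cux2 (0.992), Sptlc2 and Snupn (0.991 each). Agt, itself an acute phase gene, was at 583, 707 and 623 CPM in Dicer LKO and 383, 415 and 321 CPM in the controls (log2 fold change 0.77, adjusted p = 0.0873, edgeR). Like Cebpd, it showed no overlap between the groups and a control 2 close to control 1. Cux2, a transcription factor gene higher in female liver, was the only one of these 10 neighbours called (2.75, adjusted p = 0.0398, edgeR).

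Many other positive acute phase genes were also highest in LKO 2 within Dicer LKO and in control 2 within the controls. Of 29 tested, 27 had positive log2 fold changes, the median was 1.16, and 0 were called (12 were under an unadjusted p of 0.05, 21% of all genes tested being so). In 24 of them control 2 was the highest control and in 26 LKO 2 was the highest Dicer LKO library. Complement C3 was at 18290 ± 4568 against 9900 ± 4798 CPM (mean ± SD, n = 3 each; adjusted p = 0.247, edgeR) and haemopexin (Hpx), which binds haem, at 13630 ± 5400 against 5276 ± 4272 CPM (0.253). The groups did not overlap for 11 of the 29 in the higher direction and for 1, hepcidin (Hamp), in the lower, where all genes tested gave 12.7% and 15.4%.

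Genes in this paragraph were singled out after their values were seen. Among the metallothioneins, which bind zinc, control 2 lay above the other controls but below all Dicer LKO libraries. Mt1 was at 711, 1769 and 598 CPM in Dicer LKO and 21.2, 366 and 2.23 CPM in the controls (adjusted p = 0.394, edgeR). Apcs, the serum amyloid P gene, was at 445, 1762 and 328 CPM against 61.3, 234 and 32.7 CPM (adjusted p = 0.187). A2m stood at 54.2 CPM in LKO 2 and at most at 0.996 CPM in the other libraries. Hamp, an interleukin 6 target that limits iron export, ran the other way, at 0.37, 0.14 and 28.1 CPM in Dicer LKO and 257, 103 and 153 CPM in the controls (log2 fold change −4.15, adjusted p = 0.26, edgeR).

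**Figure D3:**
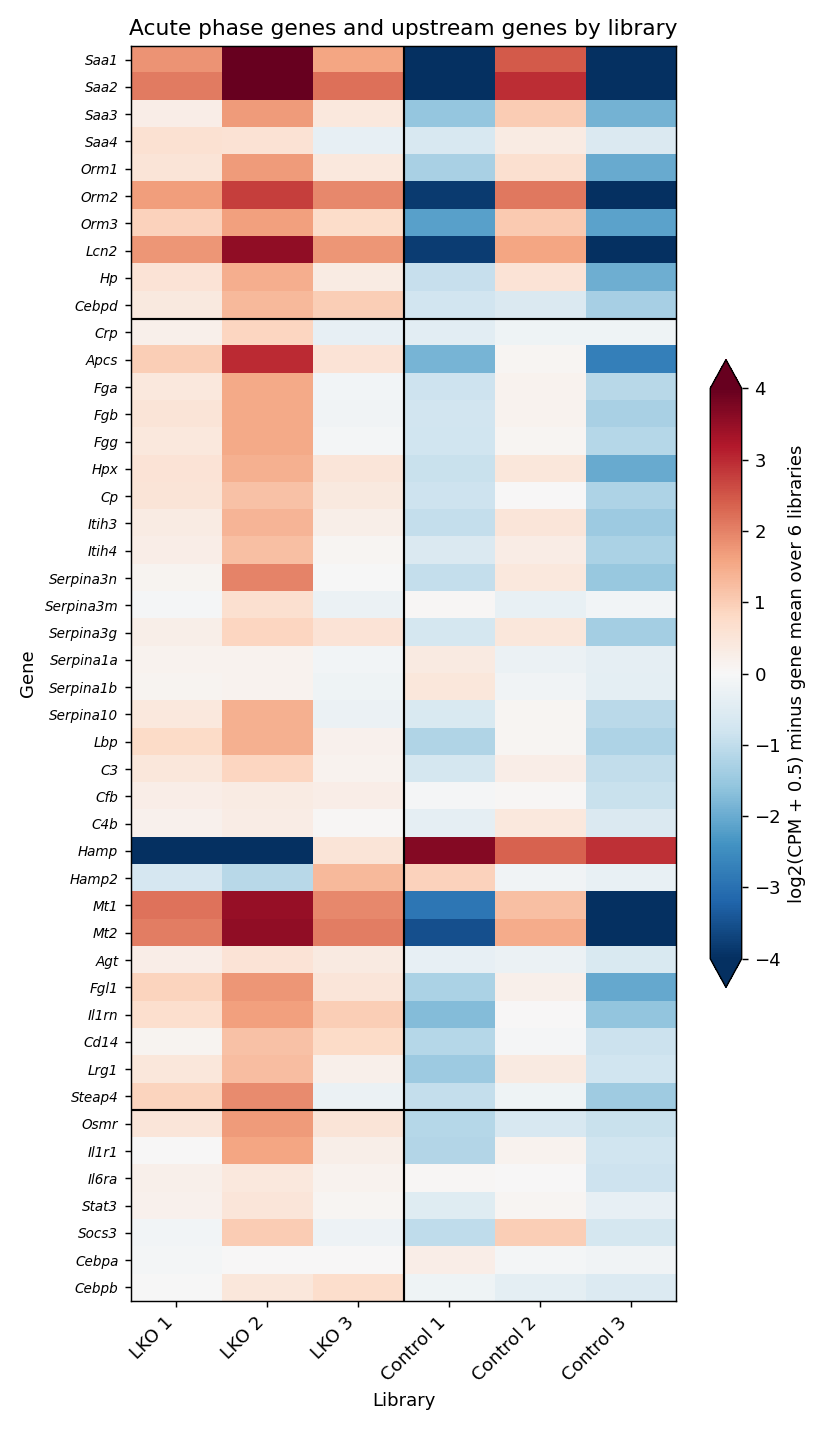
Log2(CPM + 0.5) of each gene minus its mean over the 6 libraries (colour, limited to 4 either way): the 10 genes above the first line, other positive acute phase genes below it, and receptors, signalling and C/EBP genes at the bottom. LKO 2 is the most red column for most acute phase genes, and control 2 differs in colour from control 1 and control 3.

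Negative acute phase genes, whose output falls in the response, were not mostly highest in LKO 2 and control 2 within their groups. Of 10 tested, 5 had positive and 5 negative values, the median was near 0 (−0.003) and 0 were called. At an unadjusted p under 0.05 (edgeR) there were 3, against 21% of all genes tested. Alb was at 48410, 45460 and 51060 CPM in Dicer LKO and 52050, 24330 and 26350 CPM in the controls. Control 2 was thus low for Alb, and so was control 3, in which Saa1 was lowest. Transferrin (Trf), the iron carrier of plasma, was at 35010, 66880 and 33990 CPM against 16720, 21200 and 10180 CPM (log2 fold change 1.498, adjusted p = 0.105, edgeR). LKO 2 was the highest Dicer LKO library for 3 of the 10 (Trf, Ahsg and Fetub). It was the lowest of its group for Alb, Ttr, Rbp4, Apoa1, Serpina6 and Cps1. The groups did not overlap for 3 in the higher direction (Trf, Ahsg and Fetub) and 0 in the lower, where all genes tested gave 12.7% and 15.4%.

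Of 12 genes of cytokines that drive the response, 4 passed the filter on low counts and 0 were called (0 also at an unadjusted p under 0.05, edgeR). Il6 had at most 0.09 CPM in any library. Il1a was at 5.39 ± 0.95 against 4.51 ± 1.79 CPM and Il1b at 2.37 ± 1.195 against 3.78 ± 2.05 CPM (adjusted p = 0.677 and 0.474, edgeR). For Il1b, control 2 was the highest of all 6 libraries at 6.15 CPM. Cytokines made in other organs are not measured by liver RNA.

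Among 14 tested receptor genes, 10 had positive values, the median was 0.36 and 0 were called. At an unadjusted p under 0.05 (edgeR) there were 5, against 21% of all genes tested. Lifr, the receptor for leukaemia inhibitory factor, was at 262 ± 44.6 against 581 ± 168 CPM (log2 fold change −1.15, adjusted p = 0.0752, edgeR), with no overlap between the groups. The shared signal-transducing chain gp130 (Il6st) was at 340 ± 64.0 against 300 ± 27.7 CPM (adjusted p = 0.642). Osmr, the oncostatin M receptor, named after its values were seen, was at 13.2, 31.1 and 13.6 CPM in Dicer LKO and 3.92, 5.72 and 4.72 CPM in the controls (log2 fold change 2.01, adjusted p = 0.0604, edgeR). As for Cebpd, control 2 stayed with the other controls.

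Of 19 signalling and transcription factor genes 0 were called, 9 had positive values and the median was −0.006. Stat3 stood at 220 ± 33.6 in Dicer LKO and 158 ± 34.5 CPM in the controls (adjusted p = 0.234, edgeR), with Jak1 at 154 ± 17.9 and 136 ± 16.2 CPM (0.579). Feedback inhibitors had 0 calls among 11, with 6 positive values and a median of 0.26. The phosphatase gene Ptpn11 stood at 72.3 ± 9.78 against 76.9 ± 6.91 CPM (adjusted p = 0.78, edgeR), while Zfp36, which promotes decay of cytokine mRNAs, stood at 27.7 ± 8.002 against 42.2 ± 3.06 CPM (0.158). Socs3, which STAT3 induces and which then blocks gp130 signalling, was named after its values were seen. It was at 13.03, 28.9 and 12.03 CPM in Dicer LKO and 6.67, 28.2 and 8.48 CPM in the controls, so that LKO 2 and control 2 were alike and stood above the other 4.

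None of the 6 other C/EBP family genes was called (edgeR), with 3 positive values and a median of 0.04. At an unadjusted p under 0.05 there were 2, against 21% of all genes tested. Cebpa, the main C/EBP gene of resting hepatocytes, stood at 237 ± 9.44 against 246 ± 38.9 CPM (adjusted p = 0.895, edgeR), with Cebpg at 55.9 ± 13.6 against 48.8 ± 6.94 CPM (0.616). Cebpb, named after its values were seen, was at 39.3, 55.5 and 65.1 CPM in Dicer LKO and 35.3, 30.0 and 27.0 CPM in the controls (log2 fold change 0.79, adjusted p = 0.0918, edgeR). It did not overlap between the groups and was not raised in control 2.

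**Figure D4:**
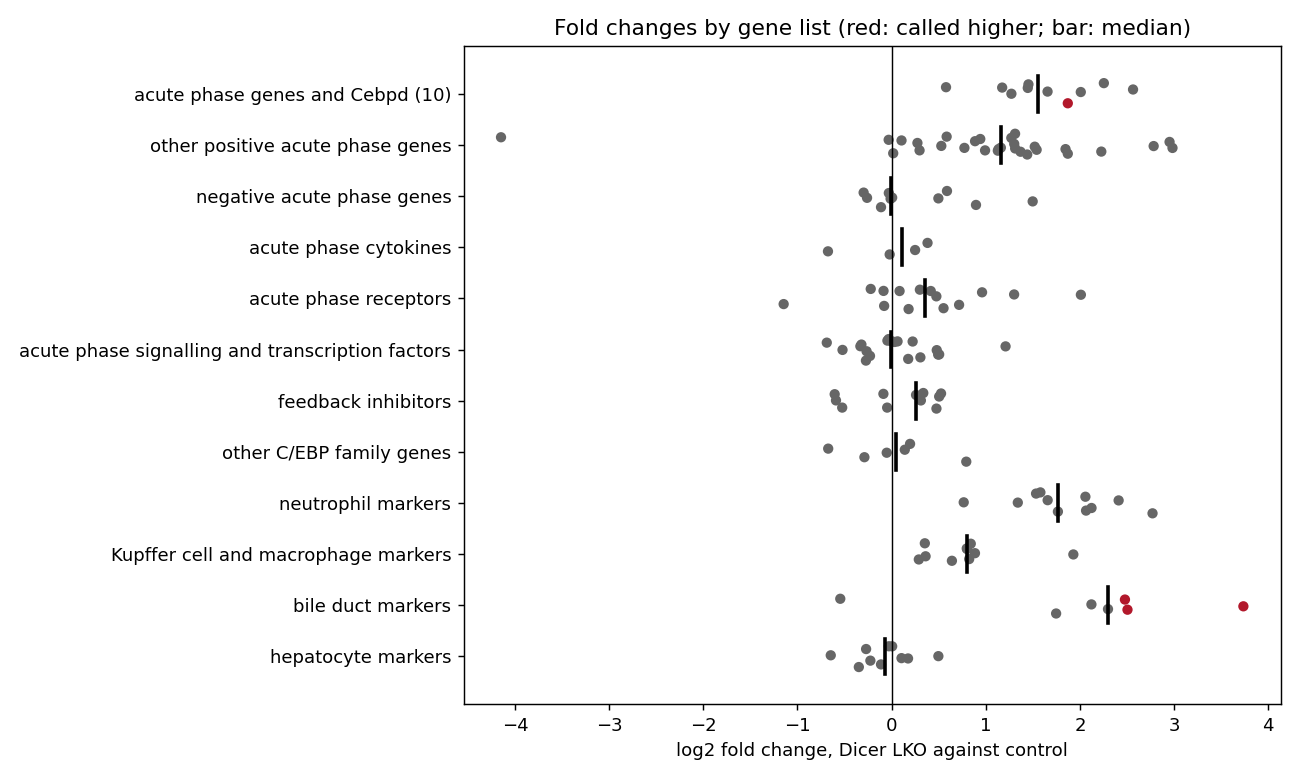
Log2 fold change of each tested gene, Dicer LKO against control, by gene list (points; red, called higher), with a bar at the median of each list. The 10 genes have a median of 1.55 and other positive acute phase genes 1.16, while negative acute phase, signalling and hepatocyte lists lie around 0.

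Markers of other cells moved with some of these differences, and their part in them was not tested. Neutrophil markers were positive for 11 of 11 tested (median 1.77, 0 called). Of these, 6 were under an unadjusted p of 0.05 (edgeR), against 21% of all genes tested. The groups did not overlap for 8 in the higher direction and 0 in the lower, where all genes tested gave 12.7% and 15.4%. Their summed level was 51.5, 43.8 and 99.5 CPM in LKO 1, LKO 2 and LKO 3 and 17.6, 30.5 and 3.32 CPM in the controls. S100a9 was at 22.7 ± 11.6 against 5.35 ± 3.93 CPM and S100a8 at 11.5 ± 6.11 against 2.58 ± 1.99 CPM, and the granulocyte marker Ly6g was at 0.32 CPM or less in each library. Control 2 had the highest level among controls for all 11, but LKO 2, highest in Lcn2, had the lowest neutrophil sum of the Dicer LKO libraries. Macrophage and Kupffer cell markers were positive for 10 of 10 (median 0.80, 0 called). Of these, 5 were under an unadjusted p of 0.05 (edgeR), and the groups did not overlap for 6 in the higher direction and 0 in the lower. The macrophage and Kupffer cell markers summed to 504, 445 and 511 CPM in Dicer LKO and 286, 468 and 196 CPM in the controls. Here too control 2 was the highest control and LKO 2 the lowest of its group. Cd5l was at 116 ± 17.9 against 90.4 ± 52.3 CPM and Clec4f at 92.1 ± 6.54 against 71.7 ± 23.0 CPM.

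Bile duct markers were called higher for 3 of 7 tested, where 0.741% of all genes tested were. These were osteopontin (Spp1), Epcam and Cftr, with adjusted p-values of 0.0196, 0.0347 and 0.0366 (edgeR). Cftr was near the floor in the controls, at 0.048 to 0.0901 CPM. Of the 7, 6 had positive values. Sox9 ran the other way, at 2.84 ± 0.47 against 4.185 ± 2.06 CPM (log2 fold change −0.55, adjusted p = 0.463, edgeR). The 7 markers summed to 142 to 268 CPM in Dicer LKO and 32.3 to 47.1 CPM in the controls, and this sum was highest in LKO 3, not in LKO 2. Among adipocyte markers, leptin (Lep) was at 0 counts in all libraries and Adipoq at most at 0.83 CPM, in control 3, where Saa3 and Lcn2 were lowest. Cidec, the 1 adipocyte marker tested, was at 0.94 ± 0.23 against 0.81 ± 0.39 CPM. Heart muscle markers summed to 48.5 CPM in control 3 and 0.762 to 13.5 CPM in the other libraries, with Myl2 at 17.9 CPM and Myh6 at 7.65 CPM in control 3. Control 3 was also the shallowest library and had 10.2% of counts in mitochondrial genes, against 4.62% to 6.46%. Hepatocyte markers were positive for 4 of 10 with a median of −0.07 and 0 called, and Cyp2e1 was at 4677 ± 1725 against 5644 ± 1773 CPM (adjusted p = 0.729, edgeR).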

How the data were processed

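RNA from whole liver was sequenced in 3 Dicer LKO and 3 control samples, grouped and numbered by sample title. The authors deposited, per the file headers, an expected count for each gene, which is an estimate of its reads without normalization, and a TPM value, which is scaled by effective length to the same total in each sample. The submitters' processing notes list CASAVA, Bowtie and the build hg19, although the gene identifiers are those of mouse. Not given in the sources used here are tool versions, the counting program, the mouse build, the annotation and the strand. Coordinates come from GENCODE M21 (GRCm38), whose gene identifiers matched those of all 10 genes, with version.

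Expected counts were rounded to whole numbers, filtered with filterByExpr, and scaled by TMM. The test was the quasi-likelihood test of edgeR (4.0.16, R 4.3.3; robust), its model holding genotype alone, Benjamini-Hochberg adjusted over all genes tested and called under 0.05. The SE was taken from the log2 fold change and the root of its F. Tested on simulated data with 14314 genes, 200 of them changed, the fit called 80.7% of genes with a log2 fold change of 2 either way and 36% of those with 1. There were 8 false calls per simulation. The changed genes were drawn from all genes tested, so these shares do not hold for genes that vary as widely as Saa1. Alternatives used DESeq2 1.42.0, limma 3.58.1 on log2(TPM + 1), library totals, no filter, a replicate block and fewer libraries. Total counts per sample were 14141973 to 25049749, and counting error was not estimated apart from the spread between libraries. It weighs most for genes with few reads, such as Cftr (71 counts over all 6 libraries) and Il6 (5 counts).

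The 10 genes and all lists were chosen with earlier results of these data known. Of each other list, up to 4 called genes were named (smallest adjusted p), or, with fewer than 2 called, the 2 most expressed. For Saa1 and Cebpd the 5 most alike genes were named (average log2 CPM 1 or more), leaving out symbols of predicted genes and clones. Protein sequences were not used here.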

Additional observations from a re-analysis of the deposited data

How the results depend on the processing

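Of 120 values of the 10 genes under 12 alternatives, 103 kept their direction and side of the threshold, 8 passed it, 6 lost it and 0 reversed. The other 3 (Saa1, Saa2 and Orm2 with DESeq2) kept their direction but had no adjusted p. The value of Cebpd was 1.70 to 2.09 without each library in turn and 1.87 without LKO 2 and control 2 together (adjusted p = 0.0815, edgeR). It kept its call with library totals (adjusted p = 0.0329, edgeR), without a filter (0.015), with the replicate block (0.0259) and with DESeq2 (adjusted p = 5.03e-07). With limma on log2(TPM + 1) the value was smaller, at 1.24, and its adjusted p of 0.0496 was just under the threshold. Called genes numbered 185 (106 higher), 103 (50 higher) with library totals, 1117 (494 higher) with DESeq2, 422 (207 higher) without a filter and 94 (46 higher) with limma on log2(TPM + 1). Without each library in turn there were 23 to 389 (15 to 76 higher), and 23 (17 higher) without LKO 2 and control 2. Of the 10 genes, 1 was called, 0 to 2 without each library in turn, and 5 without LKO 2 and control 2 together. Those libraries were left out because their Saa1 was the highest of each group, so these 5 calls (Saa1, Saa2, Orm2, Orm3 and Lcn2) are no support for a difference. With the replicate block 2 were called (Cebpd, and Orm1 at an adjusted p of 0.0459). Whether equal numbers pair the samples is not known. Deviations from the group means of same-numbered libraries had correlations of 0.1, 0.0703 and −0.0885, which cannot decide it with 3 libraries per group. LKO 1 correlated best with control 1 (0.1), LKO 2 with control 3 (0.0735) and LKO 3 with control 1 (0.101). The block and limma gave 5.23 and 4.82 for Saa1 (2.01 in the reported fit) and 6.67 and 5.91 for Saa2 (2.25). For Orm2 they gave 4.64 and 4.12 (1.66), and for Lcn2 4.90 and 4.54 (2.56). The block gave 2.297 for Orm3 (1.45), and none of these was called. The reported value compares group means of counts (ratio of mean CPM 4.02 for Saa1), in which control 2 weighs most among the controls. The limma value compares means of logs, in which each library weighs alike. Why the block gave other values was not tested. The median r of pairs was 0.970 on log2(TPM + 1). No alternative depth was tried.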
